A study of Homo sapiens with 21 samples.

Results

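AGO2 PAR-CLIP libraries made without a urea gel were set against AGO2 PAR-CLIP libraries made with one. The comparison holds the 4 libraries whose labels read noUreaPAGE (A and B) or plusUreaPAGE (A and B), out of 21 samples in the series, 17 of which had a cluster file. The established human line Flp-In T-REx 293, derived from embryonic kidney, carried a stably integrated FLAG-HA-AGO2 transgene in all 4, and the tagged protein was captured with anti-FLAG beads. The cells had received 100 µM 4-thiouridine for 8 to 12 h before UV crosslinking at 0.3 J/cm2, and the RNA was trimmed with RNase T1 at 1 U/ul. The no gel libraries (n = 2) skipped the denaturing urea polyacrylamide gel and the urea gel libraries (n = 2) included it. The labels do not say whether A and B were separate cultures, so p-values here measure the spread between libraries, which may be technical. Every clone, agent and enzyme dose named above was shared by both groups.

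AGO2 is an Argonaute protein: it holds a microRNA and is led by that guide to messenger RNAs that pair with it, most often in the 3' UTR. Pairing rests above all on the seed, the bases near the 5' end of the microRNA, and a bound mRNA is silenced or degraded. PAR-CLIP marks the contact: where the protein was crosslinked to 4-thiouridine the cDNA carries C in place of T. Overlapping reads are grouped into clusters, and both the guides and their target sites are recovered in the same library. RNase T1 cuts after G, and a denaturing gel separates RNA or cDNA by length.

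Seeds of the guides the results turn on are shown in capitals (bases 2 to 8) in the mature sequences below, which RefSeq gives for GRCh38.p14 as chromosome, first and last base and strand. The first 3 share a seed, as do miR-25-3p and miR-32-5p. Mature miR-15a-3p is shown with miR-15a-5p because the 2 arms of that hairpin were read as a single cluster in the no gel libraries.
miR-17-5p (chr13:91350618-91350640, +): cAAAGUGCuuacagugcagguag
miR-20a-5p (chr13:91351072-91351094, +): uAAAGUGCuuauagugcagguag
miR-106b-5p (chr7:100094043-100094063, −): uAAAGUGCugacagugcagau
miR-19a-3p (chr13:91350939-91350961, +): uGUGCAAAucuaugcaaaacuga
miR-25-3p (chr7:100093571-100093592, −): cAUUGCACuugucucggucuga
miR-32-5p (chr9:109046272-109046293, −): uAUUGCACauuacuaaguugca
miR-15a-5p (chr13:50049167-50049188, −): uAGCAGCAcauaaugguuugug
miR-15a-3p (chr13:50049130-50049151, −): cAGGCCAUauugugcugccuca
miR-484 (chr16:15643301-15643322, +): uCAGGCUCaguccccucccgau
miR-744-5p (chr17:12081909-12081930, +): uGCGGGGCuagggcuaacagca

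Target sites with the most reads are shown next, each as up to 30 bases of a deposited cluster in a 3' UTR, with the match to a seed in capitals. BCL2L11 encodes the cell death protein BIM, SOX4 a transcription factor, PSAT1 an enzyme of serine synthesis, SPRED1 an inhibitor of Ras signalling, TOB1 an antiproliferative protein and CBX5 the heterochromatin protein HP1 alpha. The match of BCL2L11, SOX4 and TOB1 pairs with the miR-92/25 seed, that of PSAT1 and SPRED1 with the miR-15/16 seed and that of CBX5 with the let-7 seed. In these no gel A clusters the match began at 0 nt from the deposited mode position for BCL2L11, TOB1 and CBX5 and at 2 nt for SPRED1. It lay farther off for PSAT1 (18 nt, in a cluster of 99 nt) and SOX4 (-49 nt, negative is upstream, in a cluster of 74 nt).
BCL2L11: gccactttacttGTGCAATactgctgtaaa
SOX4: gccatccatcctGTGCAATatgccgtgtag
TOB1: aattttgtacctatattGTGCAATacttg
PSAT1: gtattttgccttTGCTGCTactttttctag
SPRED1: tttaaccacttTGCTGCTaag
CBX5: ctttcttggattttaatCTACCTCatcttg

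The no gel libraries held 929424 and 608223 reads in clusters (A and B), against 183250 and 77572 in the urea gel libraries. Distinct read sequences numbered 186446 and 185241 without the gel, against 71742 and 41944 with it. The groups did not overlap in either count, and the difference was smaller in distinct sequences (3.39-fold between geometric means) than in reads (6.31-fold). On average a distinct sequence was read 4.98 and 3.28 times without the gel, against 2.55 and 1.85 times with it. With 2 libraries a group, the two-sided exact permutation test of any single library value cannot give a p below 0.3333, so such values are given with their ranges. A cluster was listed in a file only from 5 reads, and 5 reads make 0.00645% of the smallest library (urea gel B). That share corresponds to 60 and 40 reads in the no gel libraries and to 12 and 5 in the urea gel libraries, and "the matched minimum" below keeps clusters from there on. It removes clusters with few reads mainly from the no gel libraries and none from urea gel B, so it compares clusters of equal share and does not equalise depth.

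**Figure D1:**
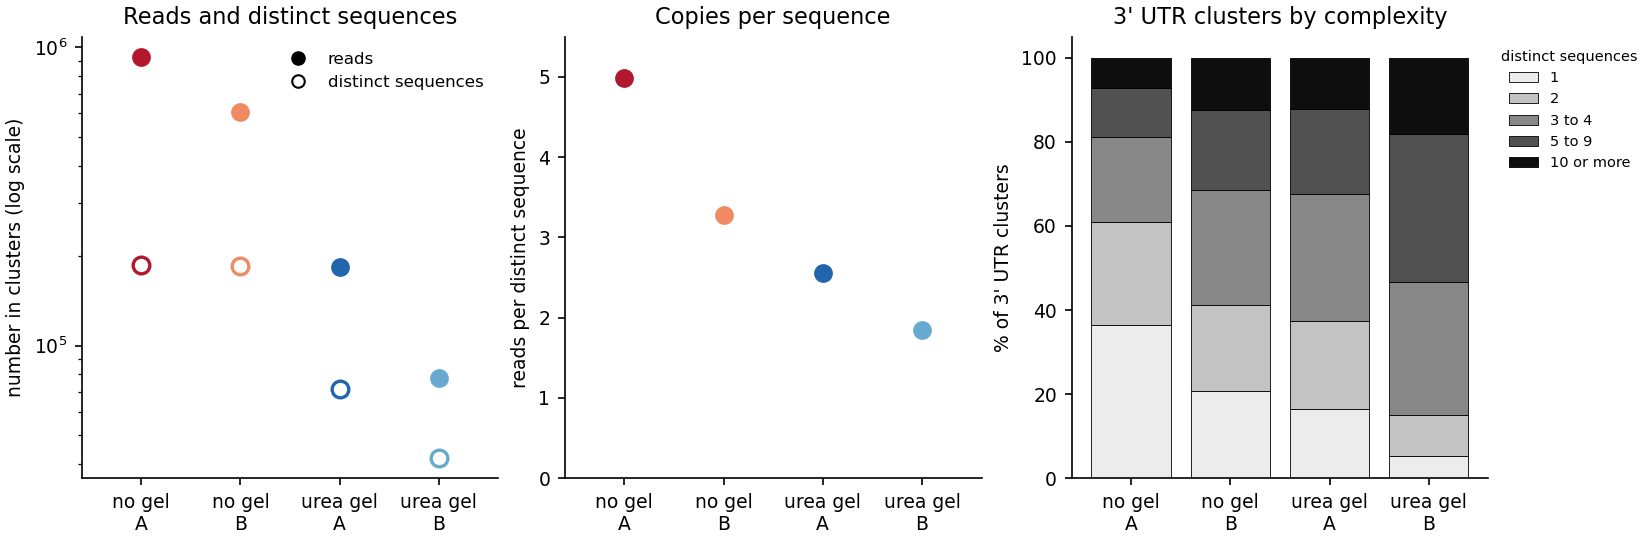
Left: reads (filled) and distinct read sequences (open) in the clusters of each library, on a log scale. Middle: reads per distinct sequence. Right: 3' UTR clusters of each library split by their number of distinct sequences, as stacked percent. Clusters of 1 sequence make up 36.5% and 20.7% of 3' UTR clusters without the gel, against 16.6% and 5.25% with it.

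Clusters in the no gel libraries were more often built from a single sequence. Over all classes of RNA, 49.2% (95% Wilson interval 48.7 to 49.7) and 32.4% of clusters held 1 distinct sequence without the gel, against 25.1% and 8.94% with it. Such clusters held 15.1% and 7.57% of reads without the gel, against 5.18% and 1.43% with it. The groups did not overlap in either measure. The part of depth was not tested, since the matched minimum removes clusters of 1 sequence by its construction. Of 1493 and 1022 clusters with at least 50 reads in the no gel libraries, 14 and 16 held 3 or fewer sequences. Of 304 and 160 such clusters in the urea gel libraries, 0 and 0 did. Intervals on shares of clusters cover counting error only.

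MicroRNAs made up a smaller part of the reads without the gel, while the mix of those with at least 100 reads in each library changed little. All microRNAs together held 34.9% and 40.4% of reads in the no gel libraries, against 52.3% and 59.7% in the urea gel libraries. They held 29.1% and 35.3% of distinct sequences, against 47.5% and 56.6%. Under the matched minimum the read shares were 60.9% and 60.1% without the gel, against 63.8% and 59.7% with it, and the groups overlapped. Reads in 3' UTRs moved the other way, at 30.9% and 28.2% without the gel, against 22.0% and 18.1% with it. Coding sequence held 10.3% and 8.85% of no gel reads, against 6.24% and 4.04% of urea gel reads, and introns 5.83% and 4.18%, against 2.98% and 2.19%. Under the matched minimum the 3' UTR shares (17.2% and 16.6% against 15.3% and 18.1%) and the intron shares (1.71% and 1.86% against 1.45% and 2.19%) overlapped. The coding shares turned there, to 3.46% and 3.24% without the gel, against 3.50% and 4.04% with it.

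Within the microRNA reads, MIR19A of the miR-17-92 cluster was the most read guide, with 16.6% and 14.5% of them without the gel, against 19.8% and 18.1% with it. MIR20A, from the same transcript, held 6.43% and 7.06% without the gel, against 6.13% and 6.93% with it, so its groups overlapped. MIR10A, encoded in a HOX gene cluster, held 5.41% and 5.03%, against 5.44% and 5.21%. MIR484, which is transcribed with its own cap and bypasses Drosha, held 4.98% and 5.03% without the gel, above the 3.38% and 3.61% with it. MIR320A, another microRNA that bypasses Drosha, held 4.27% and 3.70% without the gel, below the 6.65% and 5.89% with it.

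Of 59 microRNA genes with at least 100 reads in each library, 57 had mean shares of microRNA reads within 1.5-fold between the groups. The median log2 ratio of these shares, no gel over urea gel, was 0.03 and the range -1.21 to 0.52, with MIR671 lowest and MIR484 highest. For MIR671, no gel B listed no cluster at the site of the largest cluster of no gel A and of both urea gel libraries. Shares lay higher without the gel, with no overlap, for 13 genes and lower for 12, and overlapped for 34. The median absolute log2 difference of a microRNA share was 0.145 between the no gel libraries and 0.184 between the urea gel libraries. Between the groups it was 0.134 to 0.332 over the 4 pairs of libraries, a range that includes both within-group values. The minimum of 100 reads in each library leaves out microRNAs with no cluster in some library. Among those, MIR193B had 0 and 0 reads without the gel, against 724 and 377 with it. MIR935 had 500 and 418, against 0 and 0, and MIR92A1 had 442 and 315, against 0 and 0. Others lacked a cluster in 1 library of a group. MIR503 had 1146 and 0 reads without the gel, against 408 and 0 with it, and MIR27A had 2155 and 1973, against 478 and 0. MIR1307 had 985 and 0, against 398 and 146. Here 0 means that no cluster was listed, which also happened between libraries of the same group. The 10 microRNAs with most reads held 51.8% and 50.6% of microRNA reads without the gel, against 54.0% and 53.6% with it. As a check on the cell line, 14 microRNA genes typical of other tissues, some of them copies of the same microRNA, were looked for, and 13 had no cluster in any library; MIR142, known from blood cells, had 767 and 729 reads without the gel, against 284 and 110 with it.

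**Figure D2:**
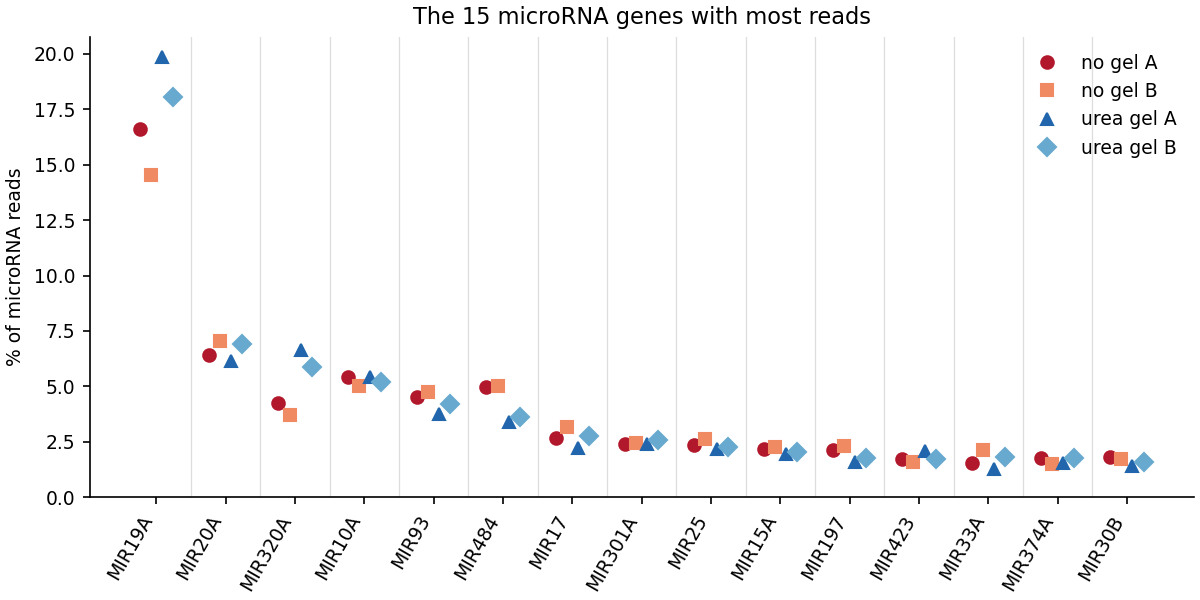
Share of microRNA reads (percent, linear axis) held by each of the 15 microRNA genes with most reads, one marker per library, no gel markers to the left of urea gel markers. MIR320A and MIR19A lie lower and MIR484 higher in both no gel libraries, while MIR20A and MIR10A overlap.

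The shape of the microRNA clusters differed more than the mix of those 59 genes. A microRNA hairpin yields a 5p and a 3p arm, and clusters of a single arm were 23 nt (3p) or 24 nt (5p) long in the median of each library. The 272, 234, 209 and 144 hairpin clusters of no gel A and B and urea gel A and B lay on 221, 196, 169 and 116 hairpins, so that most hairpins had 1 cluster. Clusters covering both arms at once numbered 20 and 16 without the gel (7.35% and 6.84% of hairpin clusters), against 3 and 4 with it (1.44% and 2.78%). They were 62.5 and 63 nt long (median) without the gel, against 61 and 62 nt with it. These clusters held 19.5% and 28.0% of hairpin reads without the gel, against 3.51% and 2.63% with it. An arm counted as covered from 16 matching bases, so MIRLET7A3 over 64 nt in urea gel A and MIR504 over 47 nt in no gel B counted as 5p. MicroRNAs without a RefSeq hairpin here were left out of these counts, among them MIR93. It was 1 cluster of 64 and 64 nt without the gel (14658 and 11741 reads). In urea gel A it was 1 cluster of 63 nt (3629 reads), and in urea gel B the largest was 36 nt.

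Among the hairpins counted, clusters joined over both arms were seen for 26, of which 21 had them in no gel libraries only and 0 in urea gel libraries only. The part of the lower depth of the urea gel libraries in this count was not tested. MIR15A was a single cluster of 63 and 64 nt in the no gel libraries (7048 and 5653 reads), against separate 5p and 3p clusters of at most 27 and 30 nt in the urea gel libraries (1862 and 950 reads). MIR20A was joined over 63 and 62 nt without the gel (20908 and 17417 reads), against at most 30 and 34 nt with it (5887 and 3217 reads). MIR33A, which lies in an intron of the sterol regulator SREBF2, was joined over 60 and 62 nt, against 23 and 23 nt. MIR106B was joined in all 4 libraries, over 63 and 62 nt without the gel, against 62 and 63 nt with it, at 3243 and 2759 reads against 789 and 544.

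Target sites were examined through seed matches, a stretch of 7 nt in a 3' UTR cluster complementary to positions 2 to 8 of a microRNA. At least 1 match to 15 microRNA families listed as expressed here stood in 11.8% (11.3 to 12.3) and 15.6% (15.0 to 16.3) of 3' UTR clusters without the gel. In the urea gel libraries the shares were 21.1% (19.8 to 22.5) and 32.2% (29.7 to 34.9). Matches to 5 families of other tissues stood in 0.62% and 0.66% of clusters without the gel, against 0.53% and 0.57% with it. The lower share without the gel thus held for the expressed families, with no overlap. The other-tissue shares lay higher without the gel, also with no overlap, but differed by less than their counting intervals. Weighted by reads the gap of the expressed families was smaller, with 26.6% and 31.6% of no gel 3' UTR reads in clusters with a match, against 32.0% and 39.6% of urea gel reads.

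The direction turned once the same minimum share of reads was asked of every library. Matches then stood in 47.2% and 49.4% of no gel 3' UTR clusters, above the 37.9% and 32.2% of urea gel clusters. The difference of means was 13.2 points there, against -13.0 points over all clusters. Other-tissue matches stood in 0.76% and 1.28% of these no gel clusters, also above the 0.61% and 0.57% of urea gel clusters. The no gel clusters kept there were longer, with medians of 34 and 33 nt, against 26 and 24 nt. The part of cluster length was not tested. Coding sequence showed the same turn for the expressed families. Over all its clusters the shares were 9.02% and 11.9% without the gel, against 15.6% and 26.4% with it, and under the matched minimum 53.3% and 46.0%, against 40.2% and 26.4%. Over clusters with at least 3 distinct sequences the share stayed lower without the gel, at 20.5% and 21.7%, against 28.0% and 35.5%.

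Seed matches became more frequent with the number of distinct sequences in a 3' UTR cluster in each library. In clusters of 1 sequence they stood in 5.32% and 5.02% without the gel, against 6.89% and 6.15% with it. With 3 to 4 sequences the shares were 12.7% (11.6 to 13.9) and 13.0% (11.9 to 14.3), against 21.6% (19.2 to 24.2) and 26.9% (22.8 to 31.5). With 5 to 9 sequences the shares were 21.8% (20.1 to 23.7) and 21.7% (19.9 to 23.5), against 27.5% (24.3 to 30.9) and 36.2% (31.8 to 40.8). In both of these ranges the intervals of the groups lay apart. At 10 or more sequences the shares were 40.4% (37.7 to 43.2) and 41.0% (38.4 to 43.7), against 44.7% (40.04 to 49.5) and 49.3% (42.9 to 55.8). There the intervals of every no gel library overlapped those of both urea gel libraries. Clusters of 1 sequence made up 36.5% and 20.7% of 3' UTR clusters without the gel, against 16.6% and 5.25% with it, and clusters of 10 or more 7.14% and 12.4%, against 12.2% and 18.2%.

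**Figure D3:**
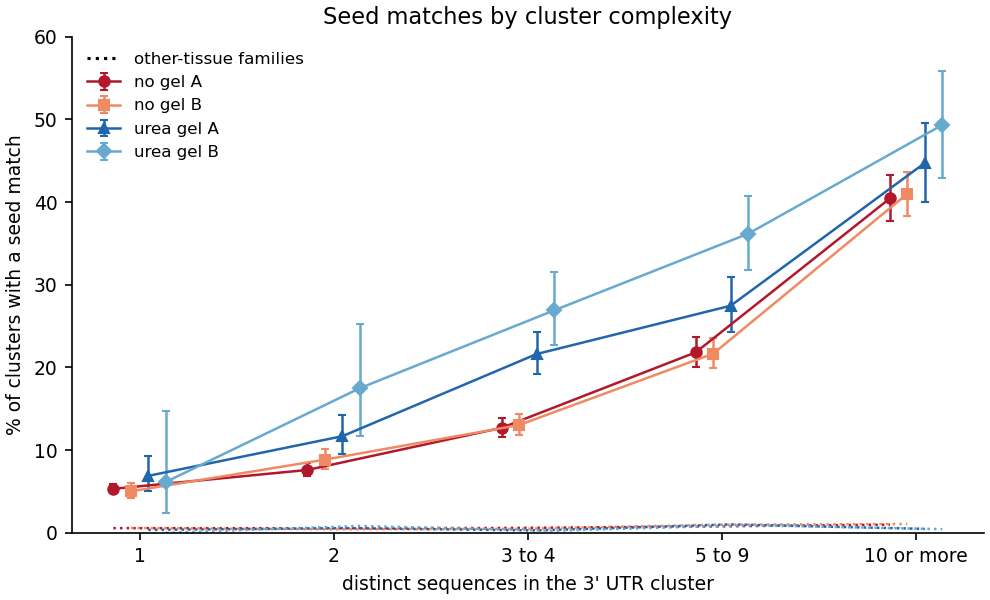
Percent of 3' UTR clusters with a seed match to 1 of the 15 expressed families (solid lines, bars are 95% Wilson intervals) or to 1 of the 5 other-tissue families (dotted), by the number of distinct sequences in the cluster. The solid lines climb from 5.32% and 5.02% to 40.4% and 41.0% without the gel and from 6.89% and 6.15% to 44.7% and 49.3% with it, and the dotted lines stay near the axis.

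By family, 10 of the 15 expressed families had lower shares in both no gel libraries and 1, miR-320, had higher ones. Of the 5 other-tissue families 1 had lower shares and 2 had higher ones, also with no overlap. Families are not independent, since some seeds overlap, as GUGCAAA of miR-19a-3p and AGUGCAA of miR-301a-3p do. The miR-19 family matched 2.06% and 2.66% of 3' UTR clusters without the gel, against 4.59% and 6.70% with it. The miR-17 family matched 1.97% and 2.54%, against 3.89% and 5.98%, and miR-92/25 matched 1.204% and 1.68%, against 2.75% and 5.33%. These 3 families are all encoded in the miR-17-92 cluster, which promotes proliferation. The let-7 family, a brake on growth, matched 0.63% and 0.96% without the gel, against 1.17% and 1.94% with it. The miR-30 family did not separate the groups, at 1.13% and 1.57%, against 1.35% and 1.37%. For miR-320 the shares were 0.46% and 0.40% without the gel, against 0.38% and 0.24% with it, on 78 and 42 clusters against 13 and 3. Under the matched minimum 14 of the 15 families had a higher mean share without the gel, 11 of them with no overlap. So had 3 of the 5 other-tissue families, 1 of them with no overlap.

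The match most often began just after the mode position of the cluster in each library. The first base of a match lay a median of 1 nt downstream of the mode position that the file gives for the cluster, over 2401 and 1991 matches without the gel, against 898 and 498 with it. Between 1 and 3 nt downstream lay 32.6% and 34.1% of the no gel matches, against 37.0% and 39.4% of the urea gel matches, with no overlap between the groups. Matches to other-tissue families fell in that window in 8.57% and 10.0% of 105 and 70 cases without the gel, and in 5.56% and 0% of 18 and 7 cases with it. The mode position was a T in 37.2% and 36.5% of clusters without the gel, against 36.3% and 37.1% with it, so it is not in every cluster the converted base.

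**Figure D4:**
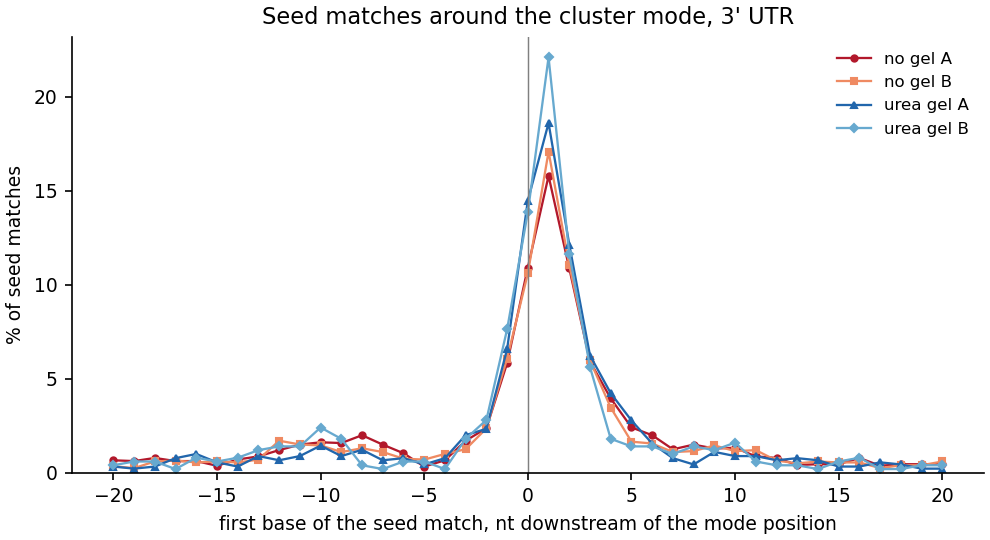
Distance from the mode position of a 3' UTR cluster to the first base of its seed match (nt, positive is downstream), as percent of the matches of each library. All 4 lines peak 1 nt downstream, at 15.8% and 17.1% without the gel, against 18.6% and 22.1% with it.

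In the 3' UTR the T-to-C share of reads was lower without the gel, with no overlap, while the share ending in G was similar. Of the 3' UTR reads that the files sort by mismatch, 86.7% and 85.6% carried a T-to-C change without the gel, slightly below the 89.5% and 88.5% with it. Under the matched minimum the T-to-C shares were 81.6% and 82.1% without the gel, against 86.1% and 88.5% with it. Over all 3' UTR clusters, reads ending in G, the base after which RNase T1 cuts, made up 47.3% and 47.9% of the sorted reads without the gel, against 47.3% and 48.1% with it, and the groups overlapped. In introns reads ending in G were fewer without the gel, at 52.3% and 54.2%, against 57.3% and 69.4%, and under the matched minimum that order turned, to 79.2% and 77.0% against 71.4% and 69.4%.

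Clusters were joined into sites where they overlapped by at least 1 nt on a strand, which gave 57022 sites. Only 1085 of them (1.90%) had a cluster in each library, yet these held 49.9% and 57.0% of no gel reads and 70.4% and 85.5% of urea gel reads. Of their 633 sites in 3' UTRs, 284 (44.9%, 41.0 to 48.8) held a seed match. Sites in both no gel libraries and in no urea gel library numbered 4503, with a match in 19.4% (17.98 to 20.98) of those in 3' UTRs. Sites of a single no gel library numbered 44912, with matches in 7.54%, and sites of a single urea gel library 3022, with matches in 7.17%. Sites in both urea gel libraries alone numbered 34, of which 14 lay in 3' UTRs and 5 of those held a match. In the no gel libraries a seed match was thus more frequent at sites found in both libraries than at sites found in 1, and most frequent at sites found in all 4. Matches to other-tissue families moved with it, at 0.61%, 0.79% and 1.90% of these 3 kinds of 3' UTR sites, as did the median site length, at 22, 31 and 38 nt. The part of site length was not tested.

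Cluster overlap depended on which list was counted. Of urea gel B clusters, 74.7% were found in no gel A and 57.3% in urea gel A. Of urea gel A clusters, 50.6% were found in no gel A, and of no gel A clusters 8.68% were found in urea gel A, where they held 59.4% of the no gel A reads. Among the no gel libraries, 19.1% of A clusters were found in B and 33.0% of B clusters in A. Shared 3' UTR sites covered more bases without the gel, with medians of 31 and 30 nt, against 25 and 24 nt over the same 633 sites, at median reads of 73 and 53 against 18 and 10.

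Sites with the most reads and a seed match held similar shares of reads in both groups. The BCL2L11 site had 1483 and 1050 reads without the gel, against 290 and 149 with it, which is 0.160% and 0.173% of all reads, against 0.158% and 0.192%. SOX4 had 966 and 855 reads, against 228 and 116, and PSAT1 had 1104 and 485, against 237 and 123. The BCL2L11 and SOX4 shares overlapped between the groups. TOB1 had 725 and 586 reads without the gel, against 129 and 69 with it, and SPRED1 had 666 and 634, against 119 and 94. CBX5 had 577 and 386 reads without the gel, against 63 and 99 with it. The other two of the 8 most read sites were KLHL15, with 831 and 604 reads against 156 and 105, and ZNF367, with 829 and 545 against 155 and 78. For PSAT1 both shares of reads without the gel lay below both with it.

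All 1085 shared sites were tested with edgeR's quasi-likelihood test with Benjamini-Hochberg adjustment, and 8 (0.737%) were called at an adjusted p under 0.05, 3 higher without the gel (0.276%) and 5 lower (0.461%). Site ratios are relative to the median site: with library totals in place of TMM scaling, the median log2 ratio over sites was -0.51, against -0.02, and the calls were 0 higher and 12 lower. DESeq2 called 0 sites, with 63 at an unadjusted p under 0.05. Of the 284 tested 3' UTR sites with a seed match, 0 were called. Their median log2 ratio was 0.15, with 170 above and 114 below 0, beside -0.08 over the 349 3' UTR sites without a match. BCL2L11 stood at 0.43 (adjusted p = 0.389, edgeR), TOB1 at 0.64 (adjusted p = 0.277) and PSAT1 at -0.0004.

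Of the 8 called sites 2 were among the 105 tested microRNA sites and 2 among the 349 3' UTR sites without a match. Another was 1 of 37 intron sites. The rest were annotated as exons of long noncoding RNA, whose number among the tested sites is not given here. The MIR320A site fell by 0.73 ± 0.13 on the log2 scale (SE, adjusted p = 0.000362, edgeR), with 13885 and 9134 reads without the gel, against 6371 and 2732 with it. A site in LINC00657, the long noncoding RNA NORAD that binds Pumilio proteins, had 167 and 55 reads without the gel, against 103 and 43 with it, a log2 ratio of -1.52 (adjusted p = 0.0101). The other 3 lower sites lay in an intron of PIM3 (-1.44), where the clusters matched the RefSeq hairpin of MIR6821, and in the 3' UTRs of ZFP91 (-1.68) and of the nuclear pore gene NUP43 (-2.41). MIR1296 was higher without the gel, with 825 and 106 reads, against 31 and 24, at 1.81 (adjusted p = 0.0101), and library A alone gave the high count, so that shares of reads overlapped. LINC00116 had 792 and 665 reads without the gel, against 87 and 75 with it, at 1.01 (adjusted p = 0.0361), also with overlapping shares. The remaining site lay in XIST, at 1.59.

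Reads were then summed per gene, and 1121 genes with a cluster in each library and at least 10 reads were tested in the same way. Gene totals ranked more alike between the no gel libraries (Spearman 0.901 over these genes) than between the urea gel libraries (0.737) or between groups (0.732 to 0.801), across genes that are not independent replicates and at unequal depth. Called on reads were 3 genes (0.268%), 1 higher without the gel (0.0892%) and 2 lower (0.178%), while 149 (13.3%) had an unadjusted p under 0.05. Called on distinct sequences were 5 genes (0.446%), all lower without the gel, and 0 higher (92 higher at an unadjusted p under 0.05, and 0 higher by DESeq2). DESeq2 gave no adjusted p for 999 of the 1121 genes in distinct sequences, so those could not be called by it. The shares of reads did not overlap between groups for 529 genes (47.2%), 267 higher (23.8%) and 262 lower (23.4%). Both measures had the same sign in all but 152 genes (13.6%), with a Spearman correlation of 0.892 across genes.

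Lower without the gel in both measures were MIR320A and MIR17HG, the transcript that carries the miR-17-92 microRNAs. MIR320A had 2314 and 2448 distinct sequences without the gel, against 2050 and 1384 with it, at a log2 ratio of -1.30 (adjusted p = 0.0010, edgeR) in distinct sequences and -1.22 ± 0.13 in reads (adjusted p = 0.0171). MIR17HG had 87402 and 63896 reads without the gel, against 28131 and 13319 with it, at -0.70 ± 0.08 (adjusted p = 0.0171), and -0.84 in distinct sequences (adjusted p = 0.0081). Most of its reads lay in the MIR19A hairpin, with 54024 and 35850 without the gel, against 19042 and 8390 with it. DESeq2 called neither gene on reads (adjusted p = 0.0575 for MIR320A and 0.412 for MIR17HG), and on distinct sequences it called MIR320A but not MIR17HG (0.0599). Under the matched minimum MIR17HG stood at -0.32 in reads (adjusted p = 0.428, edgeR) and MIR320A at -0.84 (adjusted p = 0.210). As a share of all reads MIR19A held 5.81% and 5.89% without the gel, against 10.4% and 10.8% with it.

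DESeq2 called 2 genes on reads, 1 of them among the 3 (EXOC8), and gave no adjusted p for 326 of the 1121 genes. With edgeR another 3 genes were called on distinct sequences only. MIR744 had 790 and 870 of them without the gel, against 602 and 459 with it, at -1.14 (adjusted p = 0.0153, edgeR), and -0.9997 in reads (adjusted p = 0.112). MIR10A had 3085 and 3635, against 2007 and 1393, at -0.79 (adjusted p = 0.0303), a call that DESeq2 did not make (0.0833). An intron of ISYNA1, which encodes inositol-3-phosphate synthase, had 297 and 300 distinct sequences without the gel, against 221 and 196 with it, at -1.29 (adjusted p = 0.0288), in 1 cluster per library apart from 7 reads of no gel A. The no gel shares of these genes lay below the urea gel shares in both libraries.

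EXOC8, a subunit of the exocyst that tethers secretory vesicles, was the 1 gene called higher without the gel, at 3.35 ± 0.41 in reads (adjusted p = 0.0171, edgeR). It had 533 and 520 reads without the gel, against 13 and 5 with it. In distinct sequences it had 54 and 51, against 3 and 4, at 2.11 (adjusted p = 0.0629), so the call ended there. Its largest cluster held 346 reads of 3 sequences in no gel A and 391 reads of 6 sequences in no gel B, and the 2 clusters overlapped by 2 nt only. Stretches around their mode positions in the 3' UTR are shown because these clusters hold most reads of the 1 gene called higher, and no base is capitalised.
EXOC8, no gel A: agtttaattatcggcacttgtattttg
EXOC8, no gel B: actcatttttgtttaatatactacctatag

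Most of these EXOC8 reads were of a kind that the files do not sort by mismatch. By their column names, the deposited tables split reads into those without a mismatch, with 1 T-to-C change and with 1 other mismatch, and these classes together held 91.2% and 86.9% of all reads without the gel, against 93.3% and 89.5% with it. In the largest EXOC8 cluster they held 10 of the 346 reads in no gel A and 14 of the 391 in no gel B. Summed over the gene, sorted reads numbered 197 and 126 without the gel, against 13 and 5 with it. A test on sorted reads alone, an alternative chosen after seeing the data, gave EXOC8 a log2 ratio of 1.63 (adjusted p = 0.181, edgeR) and no call.

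The same test called 10 of 1121 genes, all lower without the gel, and MIR320A and MIR17HG were among them (log2 ratios -1.20 and -0.74, adjusted p = 1.6e-05 for each, edgeR). The others were ISYNA1, MIR10A, MIR140, MIR181B1, MIR31, MIR423, MIR744 and PRIM2, with log2 ratios between -0.56 for MIR10A and -4.09 for PRIM2. MIR31 was mostly unsorted, with 19.8% and 18.4% of its reads sorted without the gel, against 30.7% and 24.3% with it. PRIM2, a DNA primase subunit named after its values were seen, rested on 8 and 6 sorted reads without the gel, against 11 and 24 with it. Clusters of at least 50 reads in which under 50% of reads were sorted held 4.01% and 6.90% of reads without the gel, against 3.99% and 6.26% with it, and the groups overlapped.

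AGO2's own mRNA showed the same gap between kinds of counts. It had 4819 and 4685 reads without the gel, against 874 and 116 with it, a log2 ratio of 0.98 (adjusted p = 0.417, edgeR). In distinct sequences it had 390 and 502, against 209 and 70, at -0.0023, and in sorted reads 1279 and 1141, against 366 and 110, at -0.06. Its largest cluster held 3677 and 3573 reads without the gel, of which 223 and 184 were sorted, against 557 and 22 with it, where the cluster of 22 reads lay at another site. Nearly all of these reads lay in coding sequence or at the stop codon, with 36 and 67 in the 3' UTR without the gel, against 24 and 0 with it. Whether they came from the transgene or from the cell's own gene was not tested.

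**Figure D5:**
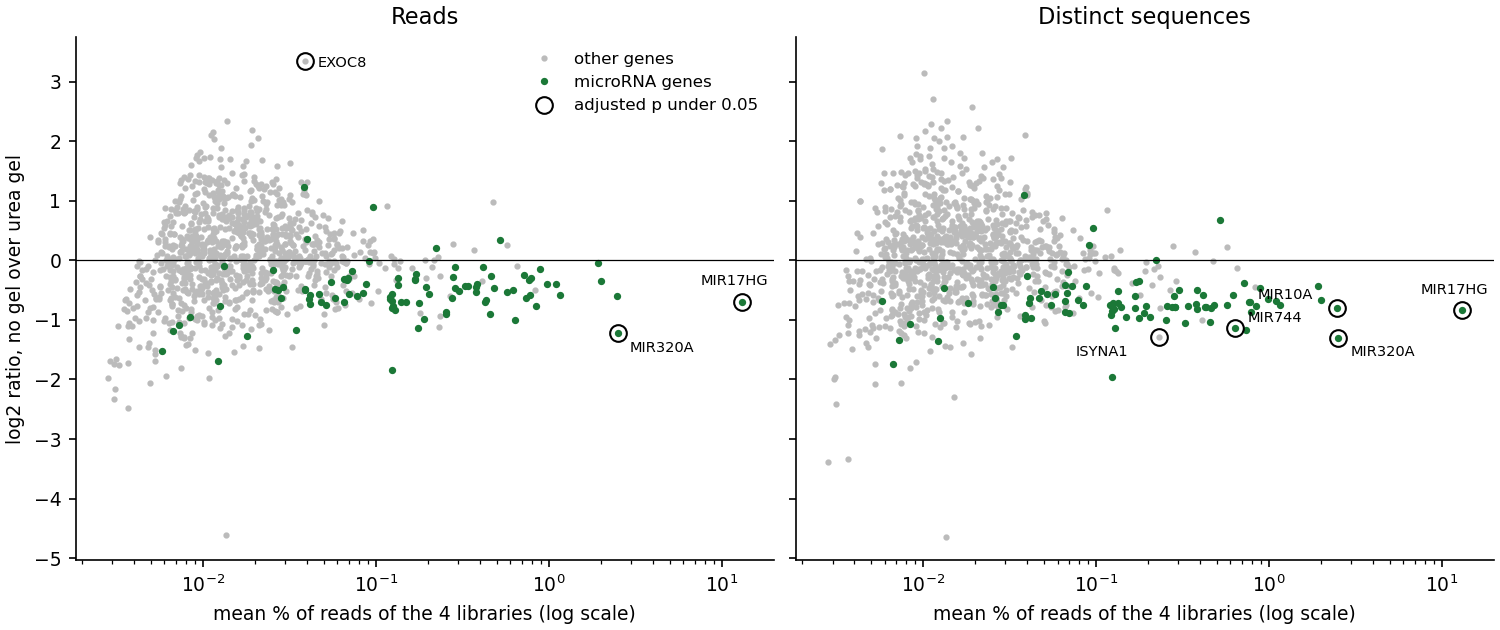
Log2 ratio, no gel over urea gel, of 1121 genes in reads (left) and distinct sequences (right) against the mean percent of reads over the 4 libraries (log scale). Green points are microRNA genes, ringed points passed an adjusted p of 0.05. Of the green points 91 of 96 lie below 0 in reads, EXOC8 is ringed in reads only, and the lowest point on the left is PRIM2 at -4.61, without a call.

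MicroRNA genes as a class lay below the other genes when reads were summed per gene. Of 96 tested genes whose reads lay mainly in microRNA clusters, 91 were below 0 and 5 above, 66 were lower without overlap (beside 23.4% of all genes) and 2 were called in reads and 4 in distinct sequences. Their median log2 ratio was -0.54 in reads and -0.75 in distinct sequences, beside 0.01 and -0.01 over all genes. Among the shared sites, whose ratios are scaled to the median site, the 105 microRNA sites had a median of -0.04, with 46 above 0 and 59 below, beside -0.02 over all sites. The 756 genes read mainly in 3' UTRs had a median of 0.14, with 453 above 0 and 303 below, and EXOC8 as their 1 call. The 148 genes read mainly in coding sequence had a median of -0.045 and the 49 read mainly in introns -0.38. Abundant microRNAs differed among themselves, with MIR423 at -0.77, MIR301A at -0.58, MIR25 at -0.39 and DLEU2, host of MIR15A, at -0.39. Under the matched minimum MIR10A stood at -0.21, MIR25 at -0.016 and DLEU2 at -0.014. MIR484 (-0.04), MIR197 (-0.14) and MIR93 (-0.34) were not called and changed sign in alternatives, MIR93 under the matched minimum only. Since the shares of a library sum to 100%, a lower microRNA share and a higher share of other RNA cannot be told apart.

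Members of the microRNA gene lists followed the class. Of 16 genes of the miR-17-92 cluster and its paralogs, 7 had a cluster and 6 were tested, all 6 below 0, with a median of -0.52 and MIR17HG as the 1 call. Of 12 let-7 and miR-98 genes 10 had a cluster and 6 were tested, all 6 below 0, with a median of -0.59 and 0 calls in reads (4 at an unadjusted p under 0.05, beside 13.3% of all genes, edgeR). MIRLET7F1 had 1236 and 731 reads without the gel, against 474 and 189 with it, at -0.99, and MIRLET7G had 4104 and 2985, against 1159 and 567, at -0.53.

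Vault and Y RNAs, small noncoding RNAs made by RNA polymerase III, lay below 0 as well. All 4 tested of 8 listed had lower shares without the gel and no overlap, beside 23.4% of all genes, with a median of -0.52 and 0 calls (2 at an unadjusted p under 0.05, beside 13.3% of all genes, edgeR). VTRNA1-2 had 6280 and 4265 reads without the gel, against 1781 and 767 with it, at -0.50, and RNY5 had 507 and 390, against 147 and 73, at -0.54. The vault RNAs are similar in sequence, so the split of reads among them is uncertain. Long noncoding RNAs had 6 of 21 tested, with a median of -0.34, and their 1 call was MIR17HG, which also stands in the miR-17-92 list. LINC00657 stood at -0.48 and OIP5-AS1 at -0.12.

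Protein-coding lists gave 0 calls in either count apart from EXOC8, the 1 exocyst subunit tested of 9 that had a cluster. Known microRNA targets had 12 of 25 tested, 9 above and 3 below 0, with a median of 0.10 and 2 at an unadjusted p under 0.05 (edgeR, beside 13.3% of all genes, as for the lists that follow). Among them BCL2L11 stood at 0.01, CCND1, the cyclin of early cell cycle entry, at 0.08, CDK6, its partner kinase, at 0.12 and WEE1, a mitotic inhibitor kinase, at 0.26. Genes of the microRNA machinery had 6 of 25 tested, 5 above 0, with a median of 0.90 in reads and 0.53 in distinct sequences and 2 at an unadjusted p under 0.05. DICER1 cuts the microRNA out of its precursor hairpin. It had 461 and 209 reads without the gel, against 36 and 17 with it, at 1.02 (adjusted p = 0.301, edgeR). The silencing scaffolds TNRC6A and TNRC6B stood at 0.04 and -0.01. SR and hnRNP splicing proteins had 13 of 33 tested, 10 above and 3 below 0, with a median of 0.54 and 3 at an unadjusted p under 0.05.

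The largest ratios belonged to genes with few urea gel reads. Of 260 genes higher without overlap and with at least 50 reads in each no gel library, the 8 highest had 5 to 16 reads in 1 or 2 clusters in each urea gel library, at the limit where a cluster is listed. After EXOC8 these were TAF5L (2.34), a subunit of histone acetylation complexes, BCOR (2.18), a corepressor, RAB5B (2.16), an endosomal GTPase, GNG12 (2.10), a G protein subunit, ACVR2B (2.05), an activin receptor, MED13L (2.04), of the Mediator complex, and ARPP19 (1.93), a mitotic phosphatase inhibitor. TAF5L had 231 and 124 reads without the gel, against 6 and 5 with it, and none of these 7 was called. At the other end stood 75 genes lower without overlap and with at least 50 reads in each urea gel library. Lowest was MIR671 at -1.84, with 780 and 152 reads without the gel, against 394 and 134 with it. Its largest cluster held 597 reads in no gel A, and 340 and 102 at the same site in the urea gel libraries. No gel B listed 1 cluster only, at another site, so this ratio rests on a cluster not listed in that library. MIR181B1 stood at -1.14, LRIG3, a membrane protein, at -1.09 and RP11-25K21.6 at -0.93, and these 4 were not called in reads either.

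The number of genes called moved when a library was left out. These fits hold 1 library in an arm, which is assumed to vary like the other group, and the number of genes tested changed too, to between 1131 and 2847. Without no gel A 13 genes were called and without no gel B 15, both including the 3 above. Without urea gel A 8 were called, 1 of them among the 3, and without urea gel B 0 of 2847 genes (edgeR, 288 at an unadjusted p under 0.05). On distinct sequences 0 genes were called without no gel A, without no gel B or without urea gel B (edgeR; 112, 138 and 260 at an unadjusted p under 0.05), and 5 without urea gel A, of which 1 was among the 5 above. DESeq2 was not run on these subsets.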

How the data were processed

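The 4 files listed clusters called per library. The deposited values used were raw counts (reads, distinct read sequences, and reads by mismatch class), and the deposited conversion and end-G values were a fraction of a cluster's sorted reads, meaning those in the 3 mismatch classes. Per the submitters' processing notes, bcl2fastq 2.20.0, cutadapt 1.15 and hg38 were used. The coordinates of these 4 files were not in that build, so none is printed, and the aligner and cluster caller are not given in the sources used here. A gene was named for 85.8% to 87.7% of clusters. Unnamed clusters stayed out of gene sums.

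Reads and distinct sequences were summed per gene and per site and tested with edgeR 4.0.16 (quasi-likelihood, TMM, no covariate, Benjamini-Hochberg over all features), with DESeq2 1.42.0 as the other tool, in R 4.3.3. Genes needed 10 reads and sites 20, with a cluster in each library. Python 3.11.15, pandas 2.3.3, scipy 1.17.1 and matplotlib 3.10.9 gave the remaining values. Tests were checked on simulated data. Of simulated 2-fold changes, 27% were called in gene reads, 11% in distinct sequences and 19% in site reads. Of 8-fold changes these were 96%, 87% and 96%, with 7, 1 and 1 false calls. A gene or site without a call may therefore still differ by 2-fold. Genes were named if called, among the 10 with most reads, among the 8 largest or 8 lowest ratios without overlap, or as the most read members of lists. Sites were named if called, or among the 8 most read 3' UTR sites with a seed match. Members and lists were chosen with earlier results of these data known. Alternatives with clusters of at least 3 sequences in the gene test and with sorted reads were added after seeing the data.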

Additional observations from a re-analysis of the deposited data

How the results depend on the processing

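Gene calls on reads numbered 3 as reported and 53 with every gene that had a read, 0 under the matched minimum (of 494 genes, edgeR, 37 at an unadjusted p under 0.05), 1 with microRNA clusters left out, 10 on sorted reads, and 0 to 15 when a replicate was left out. Calls on distinct sequences numbered 5, and 45 with every gene, 0 with library totals (edgeR, 193 at an unadjusted p under 0.05), 2 under the matched minimum, and 0 to 5 when a replicate was left out. Site calls numbered 8, and 0 with DESeq2 and 2 to 27 when a replicate was left out. With the replicate letter as a block, calls numbered 3 in reads, 59 in distinct sequences and 1 among sites. The letters were not shown to pair the libraries, since deviations of same-lettered libraries had a correlation of -0.0087 over 1121 genes. MIR197 turned to 0.040 with every gene, 0.025 without no gel A and without urea gel B (-0.31 to 0.025 over the replicates left out), 0.23 under the matched minimum and 0.027 with at least 3 sequences per cluster. MIR484 turned to 0.14, 0.08, 0.11, 0.34 and 0.14 under the same alternatives in that order, and to 0.0044 without urea gel A (-0.14 to 0.11 over the replicates left out). MIR93 turned to 0.037 under the matched minimum. The cause was not tested.

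Differences are no gel minus urea gel, in points. The seed match share was 13.2 under the matched minimum and -18.5 to -7.40 when a replicate was left out. The microRNA share of reads was -1.27 under the matched minimum, -13.6 with at least 3 sequences and -22.0 to -14.6 when a replicate was left out. Clusters of 1 sequence gave 12.1 with at least 10 reads, -4.36 under the matched minimum and 15.4 to 32.2 when a replicate was left out. Clusters over both arms gave 6.29, 10.4 and 6.35 with at least 10 reads, the matched minimum and at least 3 sequences, and 4.32 to 5.66. The 3' UTR share of clusters gave 2.70, 0.051 and 2.67, and -8.81 to -5.22. Reads per distinct sequence differed by 1.08 to 2.78. With an overlap of 10 nt, 18.5% of no gel A clusters were found in no gel B and 8.40% in urea gel A. With at least 3 sequences these were 44.3% and 22.7%, and 81.1% of urea gel B clusters were found in no gel A and 65.9% in urea gel A. Depth limits all of these values, since a cluster needs 5 reads whatever the depth of its library.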
